A study of Mus musculus with 24 samples.

Results

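The genes described here are the Wnt ligands, their receptors, their secreted antagonists and the closest intracellular and nuclear regulators of the pathway, measured by RNA sequencing in HL-1 cells. The rule for membership reads gene symbols only. The pattern took every Wnt, Fzd (Frizzled), Dkk, Sfrp, Rspo (R-spondin), Frat and Axin gene in the count table, together with Lrp5, Lrp6, Lgr4, Lgr5, Lgr6, Dkkl1, Frzb, Wif1, Lef1, Tcf7, Tcf7l1, Tcf7l2, Znrf3 and Rnf43. It matched 58 of 20351 genes in the table. Of these, 39 were expressed highly enough to be tested, as were 14411 genes in all.

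HL-1 is a mouse cell line derived from atrial cardiomyocytes, so every library came from 1 line. All cells carried an adenovirus, given at 30 MOI (multiplicity of infection). It expressed either a scrambled short hairpin RNA (control) or a short hairpin RNA against MuRF1 (knockdown), a muscle ubiquitin ligase encoded by Trim63. After 48 h the cultures, kept in serum-free DMEM, either rested or underwent cyclic stretch (15%, 1 Hz, 60 min), and RNA was taken at once. The labels call the stretch both uniaxial and biaxial. The 4 groups were non-stretched control, stretched control, non-stretched knockdown and stretched knockdown, with 6 libraries each. The labels do not say whether the replicates came from separate cultures, so p-values measure only the spread between these libraries, which may be technical.

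Wnt ligands are secreted lipid-modified proteins that bind a Frizzled receptor together with a co-receptor, Lrp5 or Lrp6. In the absence of ligand, Axin holds a complex that marks beta-catenin for destruction. When ligand binds, the complex is recruited to the receptor, beta-catenin accumulates, enters the nucleus and acts with the TCF/LEF factors on target genes, Axin2 among them. Most secreted antagonists of the Sfrp, Dkk and Wif families bind the ligands or the co-receptors, and R-spondins with their Lgr receptors keep Frizzled receptors at the cell surface. In the heart, the pathway is known for its part in development and for its reactivation after injury.

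Promoter sequences were matched for 39 of the 58 members in RefSeq's annotation of GRCm38.p6, 48 promoters in all, each running from 250 bases before to 50 bases after a transcription start. The 5 printed here belong to members on which the results below turn: Axin2, Wif1 and Sfrp5 fell with the knockdown, and Wnt9a and Frat1 fell with stretch. Letters in capitals mark a TATA box (TATAAA) or a CCAAT box (CCAAT) on either strand. All are written 5′ to 3′ along the gene.
Axin2 (chr11:108920099-108920398, plus strand): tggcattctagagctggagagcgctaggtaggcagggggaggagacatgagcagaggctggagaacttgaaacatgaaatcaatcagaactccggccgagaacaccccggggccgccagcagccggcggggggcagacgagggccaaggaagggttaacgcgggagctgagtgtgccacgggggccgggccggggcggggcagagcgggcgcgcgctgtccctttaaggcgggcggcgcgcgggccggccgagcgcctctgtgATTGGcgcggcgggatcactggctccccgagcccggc
Wif1 (chr10:121033754-121034053, plus strand): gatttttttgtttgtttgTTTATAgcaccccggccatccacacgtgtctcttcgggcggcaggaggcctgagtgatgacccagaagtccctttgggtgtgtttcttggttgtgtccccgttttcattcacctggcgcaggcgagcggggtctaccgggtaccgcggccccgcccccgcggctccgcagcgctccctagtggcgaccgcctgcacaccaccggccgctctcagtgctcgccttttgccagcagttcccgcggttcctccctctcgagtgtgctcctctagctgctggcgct
Sfrp5 (chr19:42202203-42202502, minus strand): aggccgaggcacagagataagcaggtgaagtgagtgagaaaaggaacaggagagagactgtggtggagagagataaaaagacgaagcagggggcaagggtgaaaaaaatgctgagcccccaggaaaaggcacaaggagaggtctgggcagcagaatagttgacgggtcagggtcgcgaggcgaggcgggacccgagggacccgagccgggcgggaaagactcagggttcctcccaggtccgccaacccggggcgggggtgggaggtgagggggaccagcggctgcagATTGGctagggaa
Wnt9a (chr11:59306680-59306979, plus strand): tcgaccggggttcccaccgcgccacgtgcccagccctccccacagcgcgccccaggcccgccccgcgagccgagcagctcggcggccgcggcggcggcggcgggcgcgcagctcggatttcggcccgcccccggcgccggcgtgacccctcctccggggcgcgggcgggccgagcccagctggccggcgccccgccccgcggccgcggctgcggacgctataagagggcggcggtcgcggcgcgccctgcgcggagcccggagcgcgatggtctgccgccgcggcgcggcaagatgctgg
Frat1 (chr19:41829720-41830019, plus strand): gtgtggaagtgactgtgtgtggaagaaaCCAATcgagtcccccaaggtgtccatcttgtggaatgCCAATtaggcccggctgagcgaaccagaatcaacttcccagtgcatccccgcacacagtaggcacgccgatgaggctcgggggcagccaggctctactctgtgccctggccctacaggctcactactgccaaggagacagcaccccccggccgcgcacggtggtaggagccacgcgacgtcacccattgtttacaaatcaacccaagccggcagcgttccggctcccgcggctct

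The Wnt9a promoter was the richest of the 5 in G and C, at 83.3% with 58 CpG dinucleotides, and held none of the motifs searched. The Axin2 promoter followed with 70% and 31 CpG, and the Frat1 promoter was at 61.3% with 19 CpG. A CCAAT box, as in the Axin2, Sfrp5 and Frat1 promoters, occurred in 15 of the 48 member promoters and in 37.4% of 32851 promoters of the same length. A TATA box occurred in 9 member promoters and in 13.6% of all promoters. The TCF/LEF core letters ATCAAAG were found in the promoters of Wnt11 and Wnt5b, against 3.73% of all promoters. The AP-1 letters TGANTCA were found in that of Wnt5b (7.81% of all), and the cyclic AMP response element TGACGTCA in none (1.79% of all). All 5 motifs were searched on both strands, none contains another, and a match describes only the letters of the window.

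Library totals ran from 23.6 to 54.8 M estimated counts (M for mega), and the next lowest total was 37.7 M. The lowest belonged to stretched control replicate 5, which also stood apart on the second principal component (54.7, against -14.9 to 13.2 in all other libraries, with 10.2% of the variance). The members called for stretch in control cells, and for the difference in stretch response, are given with and without it. For the comparison of knockdown and control in stretched cells, the members called are given only with it, though single calls were followed without it. There 7494 of all tested genes were called with it and 8017 without it. Trim63, the targeted gene, was 91.3% lower in the non-stretched knockdown (55.7 ± 1.17 CPM, the count scaled by library size, against 640 ± 68.1, SD, n = 6 each, two-sided exact permutation p = 0.00216, the smallest that 924 divisions allow). With stretch it was 91.2% lower (68.5 ± 7.91 against 781 ± 81.7 CPM, n = 6 each, exact permutation p = 0.00216). Cardiomyocyte markers were present, with Tnnt2 at 1250 CPM in the non-stretched control, but Nppa, the atrial natriuretic peptide gene, stood at only 0.456 CPM. A number in the library codes is shared by all libraries of a group and differs between groups. If it marks a batch, batch and group cannot be told apart.

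Compared per kilobase of transcript, the secreted antagonists had the highest of the 4 family sums in the non-stretched control (antagonists, Frizzled receptors, ligands and TCF/LEF factors), with a summed level of 305 ± 16.2 CPM per kb (SD, n = 6). Sfrp5, a secreted decoy for Wnt ligands, contributed 154 and Dkk3, a divergent member of the Dickkopf family, 133 CPM per kb. Dkk3 is counted with the antagonists here by family only, and its action on Wnt signalling was not measured. The Frizzled receptors summed to 202 ± 4.1 CPM per kb, of which Fzd6 made up 37% ± 0.666 and Fzd1 24.1% ± 0.611. The 19 ligands together reached only 9.77 ± 0.43 CPM per kb. Wnt2 led them at 2.5 CPM per kb, followed by Wnt11 at 1.98, Wnt9a at 1.73 and Wnt6 at 1.38.

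The 19 members that were not tested stayed at or below 14 counts in every library. They were 7 ligands (Wnt3, Wnt3a, Wnt5a, Wnt7a, Wnt8a, Wnt8b and Wnt10b), 7 secreted antagonists (Dkk1, Dkk2, Dkk4, Dkkl1, Frzb, Sfrp2 and Sfrp4) and 5 members of the R-spondin system (Rspo1, Rspo3, Rspo4, Lgr5 and Rnf43). Wnt8b reached 14 counts, Wnt3a at most 2 and Sfrp2 at most 1. Their differences between groups were not tested.

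**Figure D1:**
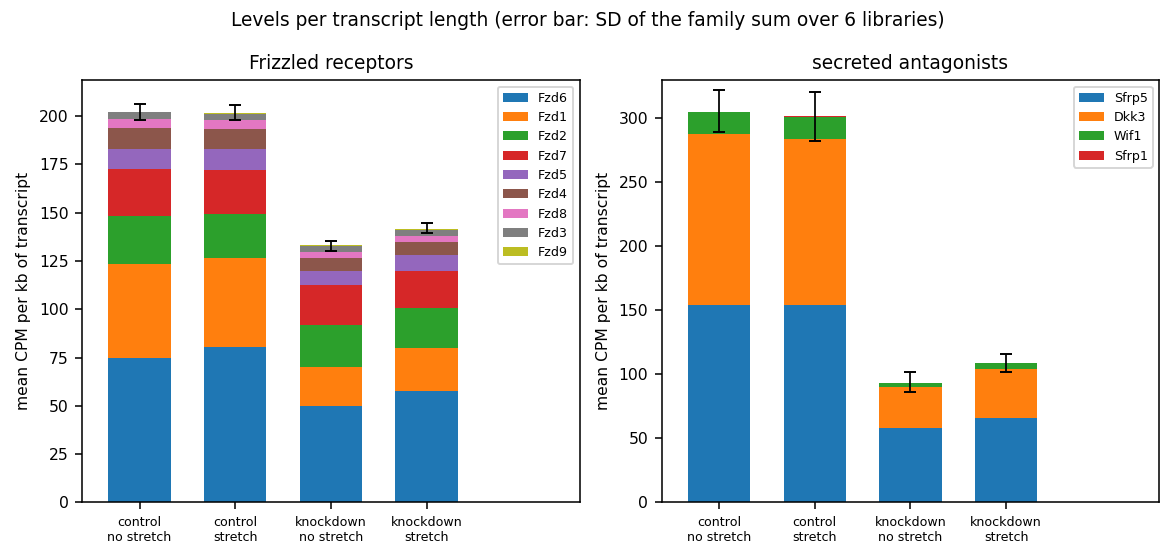
Mean levels of the Frizzled receptors and of the secreted antagonists, in CPM per kb of transcript, stacked by gene for the 4 groups of 6 libraries. Bars start at 0, and error bars are the SD of the family sum over 6 libraries. The antagonist sum was 305 and 301 CPM per kb in the control groups and 93.8 and 109 in the knockdown groups.

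The first question was how these genes differed between knockdown and control in cells that were not stretched. The series holds no other hairpin against MuRF1, so its loss cannot be told apart from other effects of the hairpin. All 4 tested secreted antagonists fell, 7 of 9 tested Frizzled receptors fell, and Axin2, a widely used readout of beta-catenin signalling, fell to 0.399 of its control level. Ligands moved in both directions, 7 up and 2 down. Tcf7 rose while Tcf7l1 and Tcf7l2 fell. In all, 11 members rose and 19 fell at an adjusted p under 0.05 by edgeR's quasi-likelihood test, that is 76.9% of the 39, where 57.8% of all tested genes were called, 28% higher and 29.7% lower. The median log2 fold change was -0.12 over the tested members and 0.01 over all tested genes. Changes past 2-fold were seen downward in 10 members (Axin2, Dkk3, Fzd1, Lgr6, Rspo2, Sfrp1, Sfrp5, Wif1, Wnt2 and Wnt9b), where 3.11% of all tested genes fell that far, and upward in Wnt7b. In either direction 5.63% of all tested genes passed 2-fold.

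**Figure D2:**
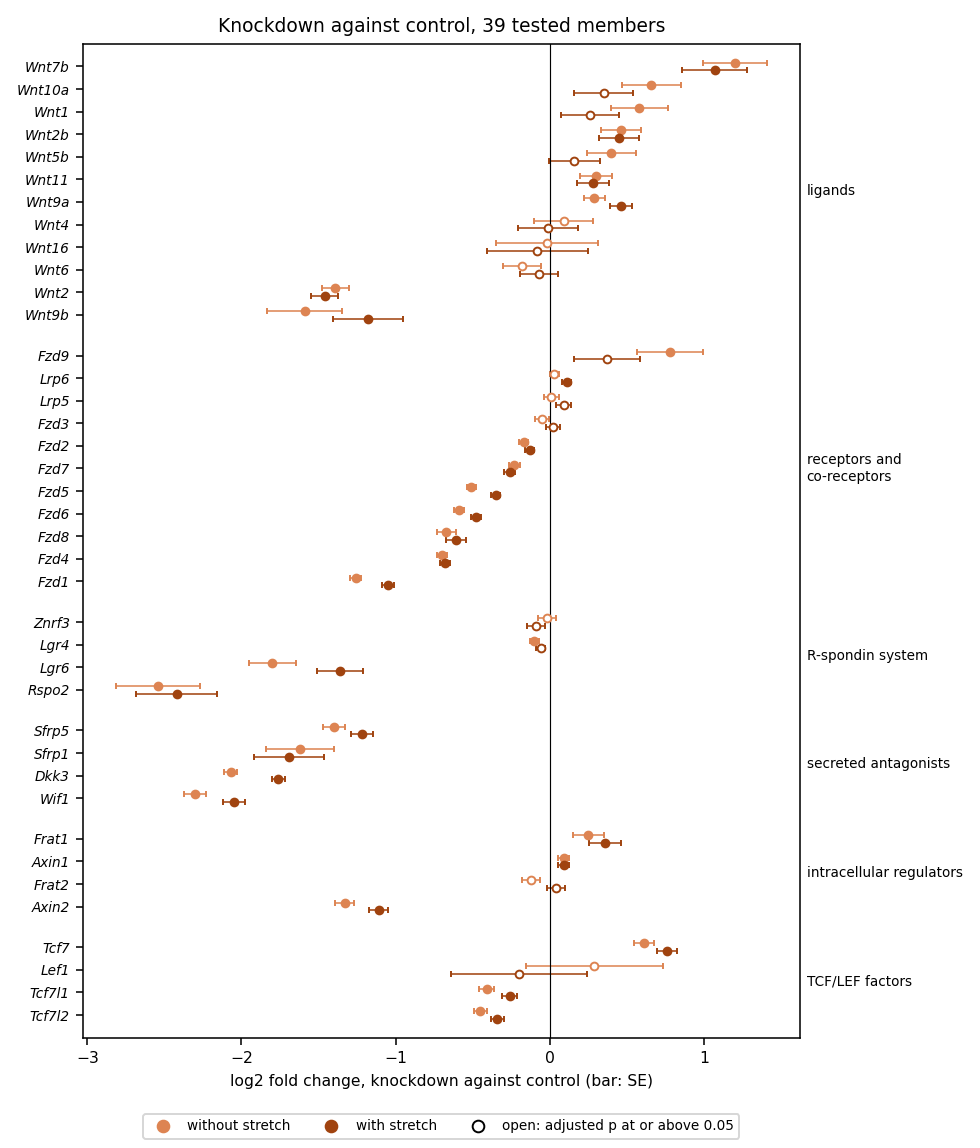
Log2 fold change of knockdown against control for the 39 tested members, ordered by role, without stretch (light) and with stretch (dark). Bars are standard errors, filled points have an adjusted p under 0.05. The 4 secreted antagonists all lie left of -1, and Wnt7b is the only point right of 1 in both conditions.

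Among the secreted antagonists, Dkk3 stood at 429 to 462 CPM in the non-stretched control libraries (median 450) and at 99.1 to 115 CPM in the non-stretched knockdown (median 106). Every knockdown library was far below every control library. The log2 fold change was -2.07 (adjusted p = 5.58e-24, SE 0.0407). Wif1, which binds Wnt ligands in the extracellular space, ranged from 36.3 to 41 CPM in the control (median 39.7) and from 6.88 to 9.25 CPM in the knockdown (median 7.56). Its groups did not overlap, and the log2 fold change was -2.3 (adjusted p = 8.63e-20, SE 0.0731). Sfrp5 ranged from 270 to 330 CPM in the control (median 289) and from 98.2 to 129 CPM in the knockdown (median 106). It fell to 0.378 of the control level, a log2 fold change of -1.4 (adjusted p = 7.2e-15, SE 0.0716), again with no overlap. Sfrp1, the fourth tested antagonist, was near the bottom of the measurable range at 10 to 70 counts per library. It fell by 1.62 on the log2 scale (adjusted p = 5.53e-07, SE 0.223), although knockdown replicate 1 at 0.702 CPM lay above the lowest control library at 0.629 CPM.

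The summed antagonist level went from 287 to 330 CPM per kb in the control libraries to 87.4 to 106 in the knockdown. In bulk RNA, fewer cells of a type and less RNA per cell cannot be told apart. Of 12 cardiomyocyte markers, 10 fell and 1 rose with the knockdown, and their summed level went from 2430 to 2750 CPM in the control to 1160 to 1250 CPM. Of 9 fibroblast markers, 6 were tested and 5 fell, their sum going from 244 to 250 CPM to 79.9 to 97.4 CPM, with the collagen genes Col1a1 at 145 and 54.9 CPM and Col3a1 at 88.7 and 27.1 CPM. Of the other fibroblast markers, Pdgfra stood at 7.52 and 6.98 CPM, Postn at 3.09 and 1.11, Dcn at 2.38 and 0.691 and Col1a2 at 0.316 and 0.0628, and Tcf21, Thy1 and Lum averaged under 1 count per library. Of 5 smooth muscle markers 3 fell (2460 to 2690 against 1700 to 1840 CPM), and of 6 epicardial markers 4 were tested and 3 fell (102 to 117 against 98.1 to 103 CPM). Of 3 tested endothelial markers 1 fell, and of 3 tested macrophage markers 2 rose. Endothelial markers summed to 7.15 to 10.1 CPM and macrophage markers to 1.56 to 2.88 CPM over both groups, with Cdh5 and Vwf near 0. The part of these shifts in the members' changes was not tested.

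**Figure D3:**
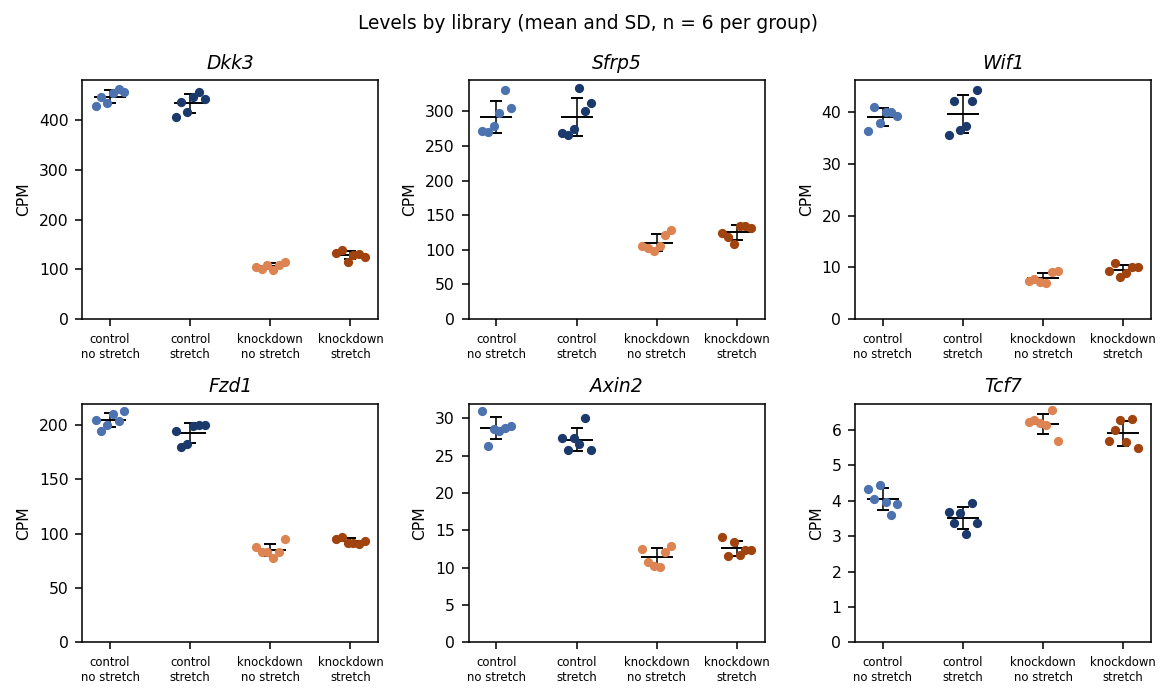
CPM of 6 members in every library, by group, with the mean and SD (n = 6). Dkk3, Sfrp5, Wif1, Fzd1 and Axin2 lie lower in both knockdown groups than in both control groups with no overlap, and Tcf7 lies higher. Vertical axes start at 0.

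Of the Frizzled receptors, Fzd1 changed most. It ranged from 195 to 213 CPM in the control (median 204) and from 77.9 to 95 CPM in the knockdown (median 83.6), with no overlap and a log2 fold change of -1.26 (adjusted p = 2.18e-20, SE 0.0378). Fzd6, the most abundant Frizzled, went from 295 to 327 CPM (median 317) to 203 to 218 CPM (median 208), a log2 fold change of -0.59 (adjusted p = 4.97e-15, SE 0.032). Fzd4, known as a receptor in vessel growth, went from 69.4 to 76.1 CPM (median 74.7) to 42.8 to 48.9 CPM (median 45), a log2 fold change of -0.7 (adjusted p = 1.1e-16, SE 0.0319). Control and knockdown did not overlap for either gene. Fzd5 went from 50.3 to 54.4 CPM (median 51.8) to 34.2 to 38.4 CPM (median 36.5), also with no overlap (log2 fold change -0.51, adjusted p = 3.31e-14, SE 0.03). Fzd8 fell by 0.67, Fzd7 by 0.23 and Fzd2 by 0.17 on the log2 scale (adjusted p = 7.88e-10, 4.22e-06 and 1.65e-05).

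Fzd9 was the only Frizzled receptor that rose without stretch, by 0.78 on the log2 scale (adjusted p = 0.00303, SE 0.215), from a low level of 0.706 ± 0.263 CPM (SD, n = 6). Fzd3 and the co-receptors Lrp5 and Lrp6 were not called, with log2 fold changes of -0.05, 0.01 and 0.03 (adjusted p = 0.398, 0.82 and 0.433). The Frizzled sum went from 202 ± 4.1 to 133 ± 2.58 CPM per kb (n = 6 each). Within it, Fzd1 went from 24.1% to 15.2% ± 0.804, Fzd2 from 12.1% to 16.4% ± 0.526 and Fzd7 from 11.9% to 15.4% ± 0.378, whereas the share of Fzd6 was 37% and 37.3%.

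In the R-spondin system, Lgr6, a receptor for R-spondins, fell by 1.8 on the log2 scale (adjusted p = 6.83e-11, SE 0.153), from 3.37 ± 0.461 to 0.968 ± 0.201 CPM (n = 6 each), with no overlap. Rspo2, the only R-spondin tested, fell by 2.54 (adjusted p = 7.56e-09, SE 0.274), but rests on 1 to 34 counts per library. Lgr4, the most abundant of the Lgr receptors here, fell by 0.1 (adjusted p = 0.00815, SE 0.0309), and its call was lost without stretched knockdown replicate 1 (log2 fold change -0.07, adjusted p = 0.0551) and with no filter on low counts (-0.06, adjusted p = 0.141). In those fits the median log2 fold change over all genes tested was also higher, at 0.037 and 0.065, against 0.009 in the main fit. Changes near 0.1 are thus close in size to a shift of the whole scale. Znrf3, a ubiquitin ligase that removes Frizzled receptors from the membrane, stood at 32 and 31.7 CPM and was not called (adjusted p = 0.843).

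Of the 12 tested ligands, Wnt2 and Wnt9b fell. Wnt2, the most abundant ligand of the control per kilobase, went from 5.64 ± 0.447 to 2.15 ± 0.164 CPM (n = 6 each), a log2 fold change of -1.39 (adjusted p = 1.04e-13, SE 0.0868) with no overlap. Wnt9b fell by 1.59 (adjusted p = 3.09e-06, SE 0.245) from 0.621 ± 0.153 CPM, on 5 to 46 counts per library. Wnt7b rose 2.3-fold (log2 fold change 1.2, adjusted p = 1.82e-05, SE 0.209) and rests on 6 to 39 counts per library. The ligands as a sum stood at 9.77 ± 0.43 in the control and 9.57 ± 0.438 CPM per kb in the knockdown, ranges that overlap.

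Smaller rises were called for Wnt10a (log2 fold change 0.66, adjusted p = 0.00459), Wnt1 (0.58, adjusted p = 0.00892), Wnt2b (0.46, adjusted p = 0.00387), Wnt5b (0.4, adjusted p = 0.0338), Wnt11 (0.3, adjusted p = 0.0152) and Wnt9a (0.29, adjusted p = 0.00052). Of these, only Wnt1 and Wnt2b separated control from knockdown libraries without overlap. Both gaps were narrow, from 0.679 to 0.702 CPM for Wnt1 and from 2.46 to 2.5 CPM for Wnt2b. Counts were low, at 19 to 42 per library for Wnt1, 12 to 45 for Wnt10a and 17 to 39 for Wnt5b. The Wnt5b call was lost without any 1 of non-stretched control replicates 4, 5 and 6 or non-stretched knockdown replicates 2 and 5 (log2 fold change 0.36 to 0.38, adjusted p = 0.0627 to 0.0715). It was also lost by DESeq2's Wald test (0.42, adjusted p = 0.0563) and with the authors' factors (0.37, adjusted p = 0.0538). Wnt4, Wnt6 and Wnt16 were not called.

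Axin2 is both a scaffold of the destruction complex and a target gene of beta-catenin. It ranged from 26.3 to 30.9 CPM in the control (median 28.6) and from 10.1 to 12.9 CPM in the knockdown (median 11.4). Its groups did not overlap, and the log2 fold change was -1.33 (adjusted p = 1.12e-16, SE 0.0604). The paralogue Axin1 moved the other way by a small amount, from 115 ± 1.26 to 122 ± 3.29 CPM (n = 6 each, log2 fold change 0.09, adjusted p = 0.0367, SE 0.0372). That call was lost without any 1 of non-stretched control replicates 3 to 6 or non-stretched knockdown replicates 1, 5 and 6 (log2 fold change 0.08 to 0.09, adjusted p = 0.0533 to 0.0744). Frat1, which keeps the kinase GSK3 from acting on beta-catenin, ranged from 2.52 to 3.63 CPM (median 3.24) in the control and from 3.58 to 3.97 CPM (median 3.8) in the knockdown, with overlap. It rose by a log2 fold change of 0.25 (adjusted p = 0.0339, SE 0.0996), lost without any 1 of replicates 2, 5 and 6 of either group (0.19 to 0.24, adjusted p = 0.0552 to 0.0977). Its paralogue Frat2 stood at 8.89 to 10.6 CPM (median 9.72) and 8.27 to 10.1 CPM (median 8.8), which overlapped, and was not called (adjusted p = 0.0736).

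Among the nuclear factors, Tcf7 ranged from 3.59 to 4.44 CPM in the control (median 4) and from 5.69 to 6.56 CPM in the knockdown (median 6.2). It rose by a log2 fold change of 0.61 (adjusted p = 4.25e-09, SE 0.0641) with no overlap. Tcf7l1, known mainly as a repressor, ranged from 62.3 to 67.3 CPM (median 64.7) against 44.4 to 52.7 CPM (median 48.4), a log2 fold change of -0.41 (adjusted p = 6.94e-08, SE 0.0502). Tcf7l2 ranged from 20.5 to 23.2 CPM (median 22.1) against 15.5 to 16.9 CPM (median 16.2), a log2 fold change of -0.45 (adjusted p = 4.79e-10, SE 0.0419). Neither overlapped between the groups. Lef1 was barely present, at 0 to 20 counts per library (0 to 0.401 CPM, median 0.225, against 0.125 to 0.398 CPM, median 0.253), and was not called (adjusted p = 0.608).

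Counted by libraries rather than by the model, 17 members were lower and 5 higher in every non-stretched knockdown library than in every non-stretched control library. The share of all tested genes with no overlap in this comparison was 37.8%, 21.5% lower and 16.3% higher. Exons of Axin2, Fzd5, Fzd6, Lef1, Tcf7l1, Wnt7b and Wnt11 overlap an annotated gene on the opposite strand. The library kit keeps strand, but whether the counting used it is not stated in the sources used here, so their values could include reads of the overlapping gene.

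The same comparison in stretched cells called 8 members higher and 18 lower by edgeR's quasi-likelihood test, 66.7% of the 39, where 52% of all tested genes were called, 25.1% higher and 26.9% lower. The median log2 fold change was -0.09 over the tested members and 0 over all tested genes. These libraries are other libraries than those of the non-stretched comparison. Of the members called, 25 were shared, all in the same direction. That is 83.3% of the 30 called without stretch and 96.2% of the 26 called with it. The matching shares over all tested genes were not computed, so this overlap cannot be read as particular to the members. Fzd9, Lgr4, Wnt1, Wnt5b and Wnt10a were called without stretch and not with it, and Lrp6 only with it (log2 fold change 0.11, adjusted p = 0.00293, SE 0.0297, with no overlap). For none of these 6 members did the difference between the conditions pass its own test (adjusted p = 0.563 to 0.841). In this comparison 18 members were lower and 4 higher without overlap, against 31.9% of all tested genes, 17.3% lower and 14.7% higher.

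The 10 members that fell past 2-fold without stretch did so with it as well, where 2.42% of all tested genes fell that far and 4.57% passed 2-fold in either direction. Wnt7b again rose past 2-fold. Dkk3 ranged from 407 to 456 CPM in the stretched control (median 439) and from 114 to 138 CPM in the stretched knockdown (median 129), a log2 fold change of -1.76 (adjusted p = 2.87e-22, SE 0.0402). Wif1 ranged from 35.5 to 44.3 CPM (median 39.7) against 8.06 to 10.8 CPM (median 9.73), a log2 fold change of -2.05 (adjusted p = 1.16e-18, SE 0.0716). Sfrp5 ranged from 265 to 333 CPM (median 287) against 108 to 135 CPM (median 128), a log2 fold change of -1.22 (adjusted p = 1.48e-13, SE 0.0712). None of these antagonists overlapped between the groups, nor did Sfrp1 (log2 fold change -1.69, adjusted p = 4.74e-07). Their sum stood at 301 ± 19.3 in the stretched control and 109 ± 7.05 CPM per kb in the stretched knockdown (n = 6 each). Cardiomyocyte markers summed to 2250 to 2820 CPM against 1300 to 1340 CPM in these groups, and fibroblast markers to 216 to 243 against 95.6 to 101 CPM. Their part was again not tested.

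The receptor Fzd1 ranged from 180 to 200 CPM in the stretched control (median 197) and from 90.4 to 97.4 CPM in the stretched knockdown (median 92.6), a log2 fold change of -1.05 (adjusted p = 1.85e-18, SE 0.0376). Fzd6 ranged from 304 to 354 CPM (median 343) against 234 to 248 CPM (median 243), and fell by 0.48 (adjusted p = 5.18e-13). Fzd4 fell by 0.68 (adjusted p = 4.12e-16), from 67.5 to 73.2 CPM (median 69.5) to 41.3 to 45 CPM (median 43.8). Fzd5 fell by 0.35 (adjusted p = 8.12e-11), from 50.8 to 54.6 CPM (median 53.2) to 40.3 to 42.5 CPM (median 41.2). Each of these 4 receptors separated the groups without overlap. Fzd8 fell by 0.61, Fzd7 by 0.26 and Fzd2 by 0.13 on the log2 scale (adjusted p = 7.7e-09, 1.16e-06 and 0.000579).

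With stretch, Axin2 ranged from 25.7 to 30 CPM in the control (median 26.9) and from 11.5 to 14.1 CPM in the knockdown (median 12.3), a log2 fold change of -1.11 (adjusted p = 7.45e-15, SE 0.0601) with no overlap. Tcf7 ranged from 3.07 to 3.92 CPM (median 3.51) against 5.48 to 6.31 CPM (median 5.83) and rose by 0.76 (adjusted p = 1.47e-10, SE 0.0658). Tcf7l2 fell by 0.34 (adjusted p = 1.1e-07), from 21 to 23 CPM (median 22) to 15.9 to 18.4 CPM (median 17.6). Tcf7l1 fell by 0.26 (adjusted p = 9.78e-05), from 54.8 to 73.2 CPM (median 59.4) to 48.1 to 53.1 CPM (median 50.7). All 3 factors separated the groups. Lef1 stood at 0.103 to 0.654 CPM (median 0.204) against 0.166 to 0.345 CPM (median 0.194), overlapped and was not called (adjusted p = 0.739).

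Frat1 rose by 0.36 with the knockdown in stretched cells (adjusted p = 0.00513, SE 0.105), and Axin1 by 0.09 (adjusted p = 0.041). The Axin1 call was lost without any 1 of stretched control replicates 1 to 4 and 6 or stretched knockdown replicates 1 and 3 to 6 (0.08 to 0.1, adjusted p = 0.0573 to 0.105), with a minimum count of 50 (0.09, adjusted p = 0.0601) and in a fit of the stretched libraries alone (0.1, adjusted p = 0.0987). Over 32 alternatives, by edgeR or DESeq2, the Axin1 value ran from 0.08 to 0.14 and its adjusted p from 1.85e-05 to 0.105. Stretched control replicate 5 held Axin1 at 139 CPM, where the other libraries of its group stood at 112 to 118 CPM. Without that library the call was kept. Wnt2 fell by 1.46 (adjusted p = 5.12e-14) and Wnt9b by 1.18 (adjusted p = 7.53e-05), while Wnt7b rose by 1.07 (adjusted p = 0.000101). Wnt9a rose by 0.46 (adjusted p = 4.5e-06) with no overlap, Wnt2b by 0.45 (adjusted p = 0.0055) and Wnt11 by 0.28 (adjusted p = 0.0291). The Wnt11 call was lost without any 1 of stretched control replicates 1 and 5 or stretched knockdown replicates 4 and 6 (0.22 to 0.26, adjusted p = 0.0587 to 0.0926). Lgr6 fell by 1.36 (adjusted p = 1.23e-08) and Rspo2 by 2.42 (adjusted p = 1.17e-08).

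The second question was what 60 min of cyclic stretch did to these genes. In control cells, 3 members fell by edgeR's quasi-likelihood test: Wnt9a, a ligand, Frat1 and Fzd2. None rose, with 2 members higher at an unadjusted p under 0.05 and 1 called higher by DESeq2. That is 7.69% of the 39 tested members, where 5.95% of all tested genes were called, 3.39% lower and 2.55% higher, a share near the background. The median log2 fold change was -0.02 over the tested members and -0.01 over all tested genes. At an adjusted p under 0.05 no member changed more than 2-fold with stretch in either kind of cell, where 0.139% of all tested genes did so in control and 0.305% in knockdown cells. The secreted antagonists stood at 305 ± 16.2 and 301 ± 19.3 CPM per kb in non-stretched and stretched control cells, and the Frizzled receptors at 202 ± 4.1 and 202 ± 3.95 (n = 6 each). Over the marker lists, 1 cardiomyocyte, 1 epicardial and 2 macrophage markers rose and 1 fibroblast marker fell, and their part was not tested.

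Wnt9a ranged from 5.02 to 6.58 CPM in the non-stretched control (median 5.7) and from 3.45 to 3.76 CPM in the stretched control (median 3.61). It was the only member whose groups did not overlap, where 3.19% of all tested genes had no overlap, 2.03% lower and 1.16% higher. Its log2 fold change was -0.67 (adjusted p = 1.41e-06, SE 0.0704), a level 0.628 of that without stretch. Frat1 ranged from 2.52 to 3.63 CPM (median 3.24) against 1.65 to 2.91 CPM (median 2.37), with overlap and a log2 fold change of -0.43 (adjusted p = 0.0142, SE 0.105). Fitted on the control libraries alone, Frat1 was no longer called (log2 fold change -0.42, adjusted p = 0.0891).

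The Fzd2 call was marginal. It stood at 89.9 ± 2.97 CPM without and 83.9 ± 3.15 CPM with stretch (n = 6 each), a log2 fold change of -0.1 (adjusted p = 0.0375, SE 0.0293). The call was lost without any 1 of non-stretched control replicates 1 to 5, stretched control replicates 1 to 4 and 6, non-stretched knockdown replicate 4 and stretched knockdown replicate 1 (-0.11 to -0.08, adjusted p = 0.0521 to 0.104). It was also lost with DESeq2 size factors (-0.1, adjusted p = 0.0616), with no filter on low counts (-0.09, adjusted p = 0.123) and with a minimum count of 50 (-0.09, adjusted p = 0.0991). The control libraries fitted alone gave an adjusted p of 0.182 and the authors' factors 0.0995 for Fzd2, both at -0.09 and neither called. Frat2 ranged from 8.89 to 10.6 CPM (median 9.72) against 7.55 to 9.36 CPM (median 8.76) and was not called (log2 fold change -0.19, adjusted p = 0.0551). Fzd6 (0.1, adjusted p = 0.0583) and Tcf7 (-0.21, adjusted p = 0.0644) also missed the threshold.

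Without stretched control replicate 5, the library that stood apart, 9 members were called in control cells, 1 higher and 8 lower, and 2023 of 14466 genes were called in all. The added members were Frat2, Fzd6, Fzd7, Lrp5, Tcf7 and Tcf7l1. Wnt9a (-0.68, adjusted p = 7.98e-07) and Frat1 (-0.46, adjusted p = 0.00536) kept their calls there, as did Fzd2 (-0.12, adjusted p = 0.00472). The library stood at 23.6 M counts, and whether its depth bears on these calls was not tested.

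**Figure D4:**
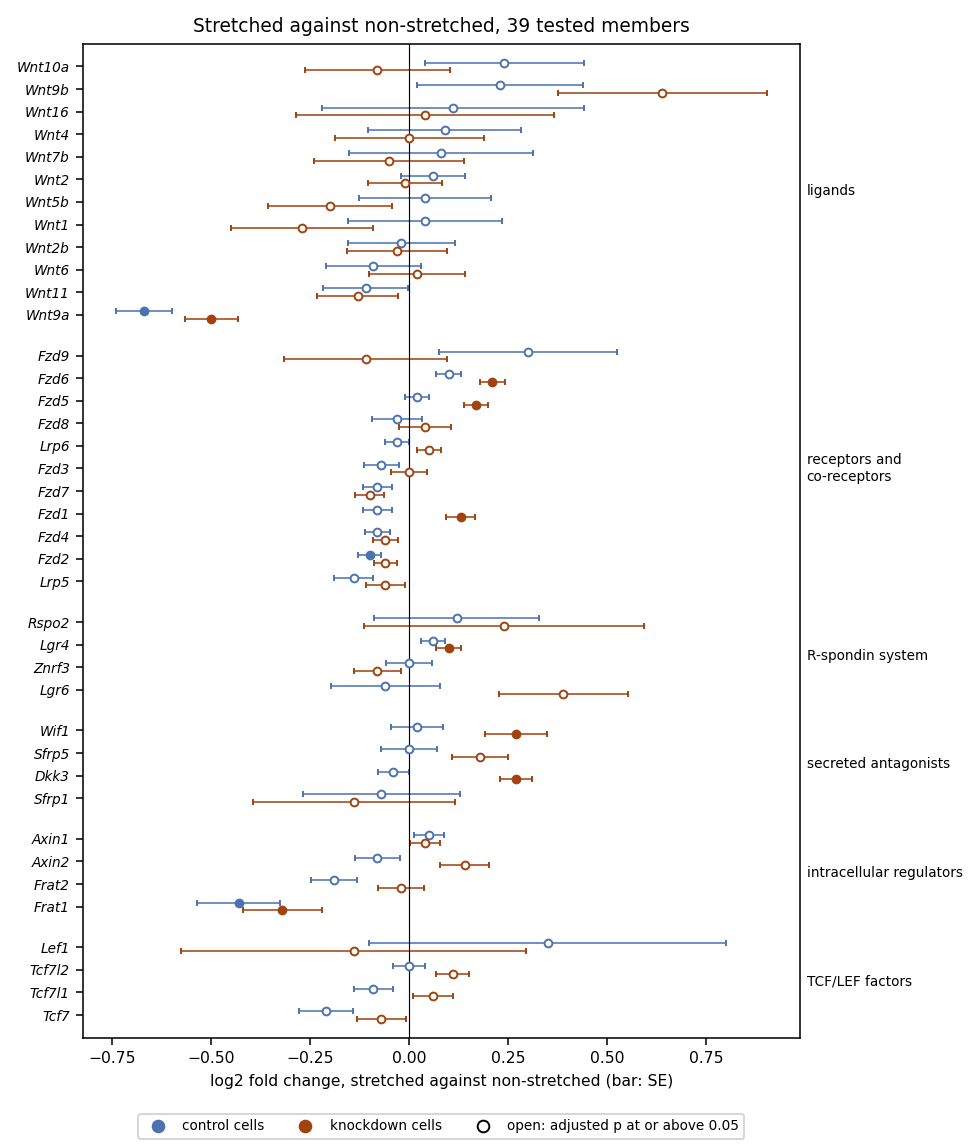
Log2 fold change of stretched against non-stretched cells for the 39 tested members, ordered by role, in control cells (blue) and in knockdown cells (brown). Bars are standard errors, filled points have an adjusted p under 0.05. Wnt9a and Frat1 are filled and left of 0 in both kinds of cell, and most other points lie within 0.25 of 0.

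In knockdown cells, stretch raised 6 members (Dkk3, Fzd6, Fzd5, Fzd1, Wif1 and Lgr4) and lowered Wnt9a and Frat1. These are 20.5% of the 39 tested members, where 8.93% of all tested genes were called by the same edgeR test, 5.32% higher and 3.61% lower. The median log2 fold change was 0 over the tested members and -0.01 over all tested genes. Control and knockdown cells shared no library in this contrast. Wnt9a and Frat1 were called in both kinds of cell in the same direction. They are 66.7% of the 3 members called in control cells and 25% of the 8 called in knockdown cells. Here too the matching shares over all tested genes were not computed.

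Wnt9a ranged from 6.12 to 7.56 CPM in the non-stretched knockdown (median 7.21) and from 4.32 to 5.2 CPM in the stretched knockdown (median 5.13). The groups did not overlap, as in control cells, and the log2 fold change was -0.5 (adjusted p = 1.3e-05, SE 0.0667). Frat1 ranged from 3.58 to 3.97 CPM (median 3.8) against 2.59 to 3.48 CPM (median 3.02), here without overlap, a log2 fold change of -0.32 (adjusted p = 0.0426, SE 0.0999). The Frat1 call was lost without any 1 of non-stretched knockdown replicates 1, 2 and 4 to 6 or stretched knockdown replicates 1 to 3, 5 and 6 (-0.34 to -0.28, adjusted p = 0.0532 to 0.103). It was also lost with no filter on low counts (adjusted p = 0.0541) and with the authors' factors (adjusted p = 0.0574), both at -0.32. Frat2 ranged from 8.27 to 10.1 CPM (median 8.8) against 8.09 to 9.17 CPM (median 8.99) and was not called (log2 fold change -0.02, adjusted p = 0.858). Frat1 and Frat2 lie on opposite strands of chromosome 19 with 18162 bases between their start sites.

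**Figure D5:**
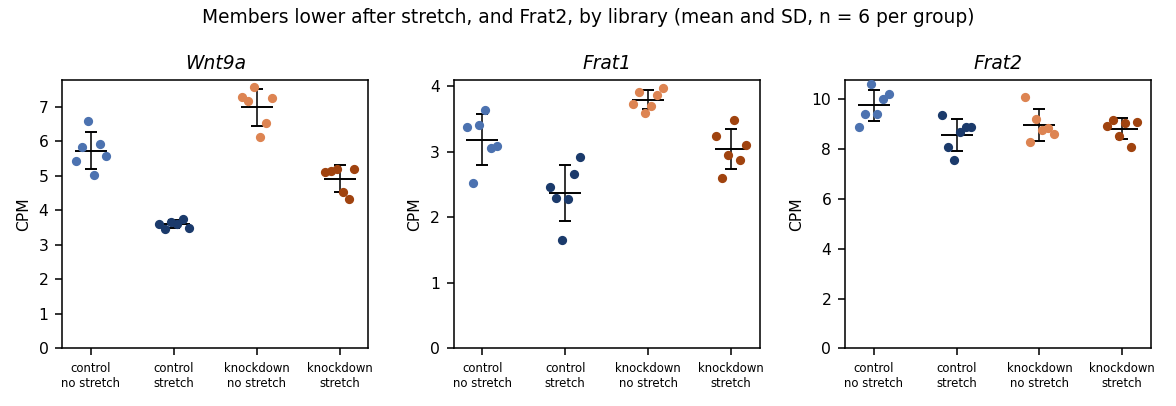
CPM of Wnt9a, Frat1 and Frat2 in every library, by group, with the mean and SD (n = 6). Wnt9a lies lower with stretch in both control and knockdown cells without overlap, Frat1 overlaps in control cells only, and Frat2 overlaps in both. Vertical axes start at 0.

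The 2 receptors Fzd6 and Fzd5 rose with stretch in knockdown cells without overlap. Fzd6 went from 203 to 218 CPM (median 208) to 234 to 248 CPM (median 243), a log2 fold change of 0.21 (adjusted p = 8.3e-05, SE 0.032). Fzd5 went from 34.2 to 38.4 CPM (median 36.5) to 40.3 to 42.5 CPM (median 41.2), a log2 fold change of 0.17 (adjusted p = 0.000385, SE 0.0301). In all, 2 members were higher and 2 lower with no overlap between the groups, against 5.43% of all tested genes, 3.5% higher and 1.93% lower. The Frizzled sum stood at 133 ± 2.58 without and 142 ± 2.63 CPM per kb with stretch (n = 6 each).

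Dkk3 ranged from 99.1 to 115 CPM (median 106) against 114 to 138 CPM (median 129), which overlapped, and rose by 0.27 on the log2 scale (adjusted p = 5.53e-05, SE 0.0397). Wif1 rose by 0.27 as well (adjusted p = 0.0296, SE 0.0784), lost without any 1 of non-stretched knockdown replicates 1 to 4 or stretched knockdown replicates 2, 5 and 6 (0.23 to 0.26, adjusted p = 0.0604 to 0.0799). Fzd1 rose by 0.13 (adjusted p = 0.0277, SE 0.0377), lost without any 1 of non-stretched knockdown replicates 2 to 5 or stretched knockdown replicates 1 and 2 (0.11 to 0.13, adjusted p = 0.0537 to 0.0654). Lgr4 rose by 0.1 (adjusted p = 0.0355, SE 0.0308), lost without any 1 of non-stretched knockdown replicates 2, 3, 5 and 6 or stretched knockdown replicates 3 to 6 (0.08 to 0.11, adjusted p = 0.0502 to 0.118). The Lgr4 call was also lost with no filter on low counts (adjusted p = 0.0734) and in a fit of the knockdown libraries alone (adjusted p = 0.0696), both at 0.1. For each of the members that rose, the mean level in stretched knockdown cells was below that of the non-stretched control, except Lgr4 at 34.5 against 34.4 CPM. Of the 12 cardiomyocyte markers, 4 rose and none fell in this contrast, from a sum of 1160 to 1250 CPM to 1300 to 1340 CPM, and the part of this in the members' rises was not tested.

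Sfrp5 (0.18, adjusted p = 0.115), Axin2 (0.14, adjusted p = 0.187) and Tcf7l2 (0.11, adjusted p = 0.122) were not called for stretch in knockdown cells. Nor was any ligand other than Wnt9a. Wnt9b had a larger value than Wnt9a, at 0.64, but a wide error and very few counts (adjusted p = 0.138, SE 0.264).

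The third question was whether the response to stretch differed between knockdown and control cells, tested as the interaction of the treatments. Dkk3 was 1 of 3 genes called by edgeR among 14411, a share of 0.0208%, where DESeq2's Wald test called 122. Its stretch response was -0.04 in control cells (adjusted p = 0.566) and 0.27 in knockdown cells, a difference of 0.31 (adjusted p = 0.0301, SE 0.0555 by edgeR's quasi-likelihood test). Leaving out any 1 of 12 libraries ended the call, with the difference at 0.28 to 0.31 and adjusted p at 0.0606 to 0.135, as did no filter on low counts (0.29, adjusted p = 0.0592) and the authors' factors (0.31, adjusted p = 0.0509). The libraries were replicates 4 to 6 of the non-stretched control, 1 to 3 of the stretched control, 2 and 4 of the non-stretched knockdown, and 1, 2, 4 and 5 of the stretched knockdown.

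No other member passed this test by edgeR. At an unadjusted p under 0.05 by edgeR, 8 of the 39 tested members differed, Dkk3 included, all with a positive difference. The matching count over all tested genes was not computed. DESeq2's Wald test called more members, as given below under the processing. Fzd1 differed by 0.22 (adjusted p = 0.102, SE 0.0528), Fzd5 by 0.15 (adjusted p = 0.171, SE 0.0422) and Wif1 by 0.25 (adjusted p = 0.437, SE 0.102). Fzd6 differed by 0.11 (adjusted p = 0.446, SE 0.0451), Lgr4 by 0.04 (adjusted p = 0.841, SE 0.0436) and Axin2 by 0.22 (adjusted p = 0.398, SE 0.085). The rises of Fzd1, Fzd5, Fzd6, Lgr4 and Wif1 with stretch were therefore called in knockdown cells without being shown to differ from control cells. For Wnt9a the difference was 0.17 (adjusted p = 0.611, SE 0.0969) and for Frat1 0.11 (adjusted p = 0.873, SE 0.145). Without stretched control replicate 5, 2 members were called, Dkk3 (0.33, adjusted p = 0.00488) and Fzd1. In that fit 109 of 14466 genes were called in all, against 3 over all libraries.

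The rest of the pathway was read from 6 lists of genes outside the members. Of 21 tested genes of the destruction complex and beta-catenin turnover, 5 rose and 7 fell with the knockdown without stretch, 57.1% called, and 4 rose and 5 fell with stretch. Ctnnb1, which encodes beta-catenin itself, went from 576 to 521 CPM, a log2 fold change of -0.15 (adjusted p = 6.41e-05, SE 0.0279), and in stretched cells from 571 to 532 CPM (-0.1, adjusted p = 0.00312, SE 0.0279). Amer1, which supports the complex at the membrane, fell by 0.87 and 0.75 (adjusted p = 2.28e-17 and 8.3e-16). Of 16 tested genes of Dishevelled and receptor-proximal signalling, 3 rose and 8 fell without stretch, and 4 rose and 8 fell with it. Among them Cxxc5, which encodes a protein that binds Dishevelled, fell by 0.52 and 0.4, and Reck, a partner in Wnt7 signalling, by 0.46 and 0.29 (adjusted p at or below 1.21e-06).

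Of 12 tested genes for Wnt secretion and extracellular modulation, 3 rose and 6 fell without stretch and 2 rose and 5 fell with it. Trabd2b, a membrane protease that inactivates Wnt ligands, fell by 0.99 and 0.97 (adjusted p = 4.6e-13 and 9.11e-13), and Gpc4, a heparan sulphate proteoglycan, by 0.65 and 0.57 (adjusted p = 3.45e-15 and 9.62e-14). Of 22 transcription partners of beta-catenin, 8 rose and 9 fell without stretch and 10 rose and 5 fell with it. The Groucho-type corepressors Tle1 and Tle3 were among those that rose, Tle1 by 0.91 and 0.92 and Tle3 by 0.57 and 0.49 (adjusted p at or below 2.74e-09).

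Of 26 genes of the planar cell polarity and calcium branch, 5 rose and 13 fell without stretch and 6 rose and 11 fell with it. Daam1, a formin of that branch, fell by 0.73 and 0.67, and Prkca, a protein kinase C, by 0.63 and 0.51 (adjusted p at or below 3.81e-13). Of 23 tested direct targets of beta-catenin outside the members, 8 rose and 8 fell without stretch, and 9 rose and 6 fell with it. Wisp1 fell by 0.61 and 0.74 and Ccnd1, which encodes cyclin D1, by 0.72 and 0.88, whereas Tnfrsf19 rose by 0.82 and 0.7 (adjusted p at or below 2.23e-09). Axin2 fell in the same libraries in which the other targets moved in both directions. The shares called in these lists ran from 42.9% to 77.3% over both knockdown comparisons, against 57.8% and 52% of all tested genes.

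Stretch called 0 to 2 tested genes of each list in control cells, where 5.95% of all tested genes were called, and 0 to 3 in knockdown cells, where 8.93% were. The shares above those levels were 2 of 16 Dishevelled genes (12.5%) and 2 of 23 direct targets (8.7%) in control cells, and 3 of 22 transcription partners (13.6%) and 3 of 23 direct targets (13%) in knockdown cells. Dact1, a Dishevelled antagonist, rose in both kinds of cell, by 0.26 in control (adjusted p = 0.000432) and 0.25 in knockdown cells (adjusted p = 0.000389), and so did Myc, by 0.32 (adjusted p = 0.0253) and 0.45 (adjusted p = 0.00106). Bambi, which encodes a pseudoreceptor of the TGF-beta family, rose by 0.18 (adjusted p = 0.0499) and 0.19 (adjusted p = 0.0332). The number of direct targets called in control cells ran from 0 to 4 when single libraries were left out. Cxxc5 fell by 0.22 in control cells (adjusted p = 0.000281), and Edn1, the endothelin gene, rose by 0.41 in knockdown cells (adjusted p = 0.0337). No gene for Wnt secretion or extracellular modulation was called for stretch, out of 12 tested, neither by edgeR nor by DESeq2, and none had an unadjusted p under 0.05. No gene of the 6 lists was called for the interaction by edgeR, with 11 of 117 at an unadjusted p under 0.05 and 1 called by DESeq2.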

How the data were processed

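RNA from 24 libraries of HL-1 cells was sequenced with a stranded poly(A) kit, per the labels' protocols. The authors deposited estimated counts per gene, made with kallisto 0.44.0 on GRCm38.p6, per the submitters' processing notes, which also name DESeq2 1.18.1 and R 3.4.4. The authors also deposited these counts after normalization, a signal whose gene-specific factors served as 1 alternative. Whether counting used strand is not given in the sources used here.

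The estimated counts were rounded. Genes were kept by edgeR's filterByExpr (minimum count 10, total 15), leaving 14411 of 20351, scaled by TMM and tested in edgeR 4.0.16 (R 4.3.3) with a robust quasi-likelihood fit over all 24 libraries, 1 coefficient per group and 20 residual degrees of freedom. The 5 contrasts were stretch in control and in knockdown cells, knockdown without and with stretch, and their interaction. P-values were adjusted by Benjamini-Hochberg over all genes tested in a contrast, and a call is an adjusted p under 0.05. SE is the absolute log2 fold change divided by the square root of F. Positive values mean higher after stretch or knockdown. CPM used the TMM-scaled library size, and CPM per kb the median length of the basic protein-coding transcripts in GENCODE vM21. Trim63 was tested by an exact permutation test. The code was tested on simulated data.

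Library totals bound the precision: at 23.6 to 54.8 M counts, members of 14 counts or fewer in every library were not tested. No 2 libraries of a group agreed within counting noise (lowest chi-square per gene 2.85 over 60 pairs). Alternatives were DESeq2 1.42.0 size factors and its Wald test, no filter, a minimum count of 50, only the groups compared, the authors' factors, the replicate number or the library code letter as a block, and each library left out. Members and lists were chosen with earlier results of these data known. Named members were those called in any contrast, with library values for the 8 of smallest adjusted p and for Wnt9a, Frat1, Frat2, Axin2, Lef1 and the Tcf7 genes. Of each pathway list at most 3 called genes per contrast were named, plus Ctnnb1. Beyond these, Wnt2, Lgr6 and the members near a threshold were given means or single values.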

Additional observations from a re-analysis of the deposited data

Results flagged for a closer look

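Every member was examined in each group of 6 libraries for a single library far from the other 5, in 156 combinations of member and group. Chance flags about 1 in 20 such groups. A library stood apart in 11 combinations, and 8 of these were stretched control replicate 5, the library of lowest depth. There it held the highest level of Axin1 (139 CPM), Fzd9 (1.47 CPM), Lgr6 (4.74 CPM), Lrp5 (147 CPM), Tcf7l1 (73.2 CPM), Wnt2b (3.19 CPM), Wnt4 (2.78 CPM) and Znrf3 (39.9 CPM). Of the remaining 3, Axin1 was low in stretched knockdown replicate 2 at 119 CPM. Fzd9 was high in non-stretched control replicate 1 at 1.22 CPM, and Sfrp1 was high in non-stretched knockdown replicate 1 at 0.702 CPM.

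The stretch response of Dkk3 differed between knockdown and control cells, by 0.31 on the log2 scale, in the interaction test of the model. That call was fragile, being lost in 14 of 31 alternatives, 12 of them with a library left out.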

How the results depend on the processing

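Over 32 alternatives, 68 calls on members gave 2164 values, of which 2059 kept direction and call, 105 kept direction only and none reversed; 13 calls were lost under at least 1 alternative. The knockdown counts of 30 and 26 fell to 23 and 21 with a minimum count of 50, since low members were then not tested. Over all genes, 7807 and 7096 of 12160 were then called for the knockdown, against 8325 and 7494 of 14411. For stretch in control cells, 3 members became 5 by DESeq2's Wald test and 1 with only the groups compared. The calls over all genes there went from 857 to 1166 and 377. The interaction call became 3 by DESeq2's Wald test, where 122 of all tested genes were called, against 3 by edgeR. It became 0 when no filter or the authors' factors were used, where 2 and 1 of all tested genes were called. Leaving out 1 library gave 2 to 9 calls for stretch in control cells, 4 to 9 in knockdown cells and 0 to 2 for the interaction. Those fits gave 568 to 2023 calls over all genes for stretch in control cells, 856 to 1930 in knockdown cells and 0 to 109 for the interaction. Members without overlap in control cells went from 1 to between 1 and 4 when 1 library was left out. Groups of fewer libraries separate more easily, and the matching share over all tested genes was not computed. Over all genes, 42.9% of calls for stretch in control cells were higher, 60.7% with no filter, 57.9% with a minimum count of 50 and 58.9% with only the groups compared.

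For the pathway lists, each library was left out in turn, an alternative chosen after seeing the data except for stretched control replicate 5. In control cells, stretch calls ran from 0 to 2 for the destruction complex (1 over all libraries), 2 to 7 for Dishevelled (2), 1 to 6 for transcription partners (1), 1 to 5 for planar cell polarity (1) and 0 to 4 for direct targets (2). In knockdown cells they ran from 1 to 2 for the destruction complex (1) and for Dishevelled (1), 1 to 4 for transcription partners (3) and 1 to 4 for direct targets (3), and planar cell polarity reached 0 to 1 for the interaction. The destruction complex call in control cells became 0 with DESeq2 size factors, no filter or the stricter filter. Transcription partners became 3 by DESeq2's Wald test and 2 with the stricter filter in control cells, 1 with no filter in knockdown cells, and 1 for the interaction by DESeq2's Wald test and with the code letter block. The causes were not tested.

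Libraries that share a replicate number showed low correlations of deviations over all genes, from -0.06 to 0.14 over 24 pairs, 1 above 0.1. Such correlations cannot decide whether the libraries were paired. With the replicate number as a block, calls over all genes went from 857 to 946 for stretch in control cells. In knockdown cells they went from 1287 to 1403, and for the interaction from 3 to 9. For the knockdown they went from 8325 to 8378 without stretch and from 7494 to 7567 with it. With the replicate block, 3 and 9 members were called for stretch, 30 and 26 for the knockdown and 1 for the interaction, and destruction complex genes called for stretch in knockdown cells went from 1 to 2. Depth limits the members under about 50 counts, Rspo2, Wnt9b, Wnt7b and Lef1 among them.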

Other observations

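One member followed the letter in the library codes. The labels give replicates 1 to 3 of each group the letter a and replicates 4 to 6 the letter b, and do not say what it marks. Sfrp5 was higher in every b library than in every a library within each of the 4 groups, by 0.18 and 0.23 on the log2 scale in non-stretched and stretched control cells and by 0.22 and 0.19 in the matching knockdown groups. Among 14411 tested genes, 7 (0.0486%) lay above without overlap in all 4 groups and 14 (0.0971%) below. Sfrp5 was singled out after its values were seen, and the cause was not tested. With the code letter as a block, Sfrp5 was called higher after stretch in knockdown cells, where it was not called without the block.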
